A study of Mus musculus with 18 samples.

Results

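The genes that lie within 10 Mb of Abca4 on mouse chromosome 3 were followed in retina and in RPE/choroid (retinal pigment epithelium with the vascular layer behind it). A gene was a member when its deposited mm9 locus overlapped chr3:111747377-131882979, the Abca4 locus at chr3:121747378-121882979 with 10 Mb on either side. Of 22558 genes in the tables, 108 overlapped this window. Abca4 itself and a fixed set of other symbols and symbol families (11 genes in all) were left out, which gave 97 members. Of these, 43 lay on the side of lower coordinates and 54 on the other side. Position and name alone define the members. The rule was set with earlier results of these data known, and it named Arhgap29, Bcar3 and Cnn3, so counts of members called are not blind to the outcome.

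The study profiled RNA of 3 genotypes at postnatal day 30, with 3 libraries per genotype and tissue (18 libraries). The groups were wild type, Abca4-/- (the knockout) and mice homozygous for Abca4 with the changes L541P and A1038V (the knock-in). Per the labels all 3 groups had a mixed background of 129SV and C57BL/6. The labels name no promoter or Cre. How each line was made, how often it was backcrossed, and whether libraries of 1 genotype were from different mice is not given in the sources used here. P-values then measure the spread between these libraries, which may be technical.

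Abca4 encodes a transporter of photoreceptor outer segments that clears retinoid adducts, and loss of its function causes Stargardt macular dystrophy in people. A gene targeted in embryonic stem cells of one mouse strain and then bred with another strain stays linked to the stem cells' chromosome around it. The flanking stretch therefore can differ by strain between mutant and wild-type mice even where the rest of the genome is mixed, and it shrinks with each meiosis. The tables hold RNA levels and no genotypes, so sequence variants of the flanking DNA were not analysed here. What can be described is the level of each flanking gene in each line.

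Abca4 RNA, as a check of the labels, was lower in Abca4-/- retina (73.9 to 81.8 FPKM, fragments per kilobase of gene, scaled to library depth) than in wild-type (228 to 282) or knock-in retina (182 to 233), with no overlap. Libraries held 11553291 to 23579152 assigned fragments in retina and 14621635 to 30048059 in RPE/choroid. Some libraries stood apart by the RNA of neighbouring tissue. The summed FPKM of 9 lens genes was 4434 and 10460 in Abca4-/- retinal libraries 1 and 2 and 5129 in knock-in retinal library 0, against 23.0 to 510 in the other 6. The summed FPKM of 8 rod genes was 2037 in wild-type RPE/choroid library 2 and 73.0 to 387 in the other 8. By Ddx3y and Xist, 2 of 3 wild-type, 1 of 3 Abca4-/- and 0 of 3 knock-in retinal libraries were from males. In RPE/choroid the numbers were 3, 3 and 2 of 3. No marker of the RPE, rod or lens list was at 0 throughout a group.

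Counts allowed a test of 73 members in retina and 76 in RPE/choroid, 72 of them in both. Of the 20 tested in neither tissue, 13 had no fragment in any library. These were 5 of the 6 amylase genes, 6 of the 7 microRNA genes and 2 predicted genes. The amylase genes are near-identical copies, so their counts are uncertain. In all, 15 members overlap the listed locus of another gene, among them Larp7 with 5 microRNA genes and Egf with 6330410L21Rik, and reads in such loci can be split between the genes.

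In retina, 6 members passed a Benjamini-Hochberg adjusted p of 0.05 over all genes in edgeR's quasi-likelihood test, in 1 or more of 3 pairwise comparisons. Arhgap29, Bcar3 and Cnn3 were higher in Abca4-/- than in wild type. Arhgap29 and 4930422G04Rik (named Zgrf1 in RefSeq) were higher in the knock-in than in wild type. Against Abca4-/-, the knock-in had more Zgrf1 and less Bcar3, 1810037I17Rik and Rwdd3. Members tested in retina thus counted 3 of 73, 2 of 73 and 4 of 73, while the shares called among all 14699 genes tested were 0.980%, 0.265% and 1.26%. In any of the 3 comparisons, 1.79% of all genes tested in retina were called. At an unadjusted p under 0.05 there were 7, 13 and 14 members (9.59%, 17.8% and 19.2%) against 12.5%, 8.50% and 11.7% of all genes, so the members' share was below the background for Abca4-/- against wild type and above it in the other comparisons. DESeq2 called 4, 3 and 6 members, against 2.06%, 0.805% and 2.12% of all genes. It added Agxt2l1 to the first count, 1810037I17Rik to the second, and A930005H10Rik, Agxt2l1 and Rnpc3 to the third, from which it left out Rwdd3. The knockout and the knock-in were compared with the same 3 wild-type libraries, so their changes are not independent of each other.

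5 of the 6 lay within 1 Mb of Abca4: Rwdd3, Cnn3 and Arhgap29 on one side, Bcar3 and 1810037I17Rik on the other. Zgrf1 lay 5.37 Mb away. The 250 bases before the annotated start of Arhgap29, Bcar3 and Cnn3, the members that rose in Abca4-/- retina, and of Zgrf1, which rose in the knock-in, are shown so that the reference letters can be read beside the levels. They come from RefSeq promoters on GRCm38.p6, a later build than that of the tables, and show the reference mouse, not the alleles of these lines. Capitals mark 4 motifs, searched on either strand: the TATA box (TATAAA), the CCAAT box (CCAAT), the core of a GC box (GGGCGG) and an E box (CACGTG). Overlapping matches run together in the capitals. For Arhgap29 and Bcar3, which have 2 listed starts, the one farthest upstream is shown.
Arhgap29, chr3:121952979-121953228, plus strand: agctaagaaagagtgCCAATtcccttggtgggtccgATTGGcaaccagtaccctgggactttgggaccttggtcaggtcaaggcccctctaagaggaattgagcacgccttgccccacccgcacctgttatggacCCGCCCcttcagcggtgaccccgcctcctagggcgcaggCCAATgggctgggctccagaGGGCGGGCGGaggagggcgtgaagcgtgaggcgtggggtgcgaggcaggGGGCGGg
Bcar3, chr3:122419507-122419756, plus strand: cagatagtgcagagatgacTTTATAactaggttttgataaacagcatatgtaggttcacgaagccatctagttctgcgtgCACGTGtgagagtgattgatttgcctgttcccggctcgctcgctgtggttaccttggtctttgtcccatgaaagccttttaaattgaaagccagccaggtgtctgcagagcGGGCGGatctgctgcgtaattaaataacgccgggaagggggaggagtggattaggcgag
Cnn3, chr3:121426291-121426540, plus strand: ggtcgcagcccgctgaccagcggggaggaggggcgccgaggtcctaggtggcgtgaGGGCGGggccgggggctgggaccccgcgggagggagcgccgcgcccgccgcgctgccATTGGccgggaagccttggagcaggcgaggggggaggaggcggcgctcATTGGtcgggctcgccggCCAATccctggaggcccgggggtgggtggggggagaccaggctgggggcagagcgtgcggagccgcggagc
Zgrf1, chr3:127553239-127553488, plus strand: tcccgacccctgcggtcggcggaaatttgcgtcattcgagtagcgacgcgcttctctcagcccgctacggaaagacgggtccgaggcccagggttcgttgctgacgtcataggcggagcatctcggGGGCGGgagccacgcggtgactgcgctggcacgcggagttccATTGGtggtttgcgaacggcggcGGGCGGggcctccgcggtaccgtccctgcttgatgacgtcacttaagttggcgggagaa

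The GC box core occurred in all 4 windows, and in 32.7% of the 32851 promoter windows of that length in the reference. It occurred 4 times before Arhgap29, 2 times before Zgrf1 and 1 time each before Bcar3 and Cnn3. The CCAAT box was present 3 times each before Arhgap29 and Cnn3, 1 time before Zgrf1 and not before Bcar3 (33.8% of all windows hold it). The letters of the TATA box (12.4% of windows) and the E box (6.02%) were found before Bcar3 and not in the other 3. The TATA match lay 231 bases before the start, on the opposite strand. CG pairs numbered 14, 12, 28 and 33 in Arhgap29, Bcar3, Cnn3 and Zgrf1, against a median of 6 over all windows. Letters alone are described here, and no factor's binding was measured.

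Arhgap29 encodes a GTPase-activating protein, which switches small GTPases off, and it is the closest member to Abca4, with a gap of 0.0283 Mb between the listed loci (chr3:121656244-121719071, mm9). Its FPKM in wild-type retina were 1.43, 1.71 and 1.57 in libraries 0, 1 and 2 of the tables (the order used throughout). Abca4-/- retina had 2.24, 2.77 and 3.30. Knock-in retina had 3.34, 2.60 and 3.45. Every mutant library exceeded every wild-type one, and the 2 mutant lines overlapped.

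On the log2 scale Arhgap29 rose by 0.77 (SE 0.13, adjusted p = 0.0124) in Abca4-/-, which is 1.71-fold, and by 0.95 (SE 0.13, adjusted p = 0.00462), 1.93-fold, in the knock-in. The lines themselves differed by 0.18, with an interval of 2 SE from -0.07 to 0.42 (adjusted p = 0.655). The rise in Abca4-/- had an adjusted p of 0.0571 without wild-type library 0, 0.0734 without Abca4-/- library 1 and 0.142 without the 3 lens-rich libraries, where it was 0.62. The rise in the knock-in kept its call without any single library and without the lens-rich ones (0.83, adjusted p = 0.0176), and had an adjusted p of 0.0593 with a term for sex. The authors' deposited table gives q = 0.00293 for both. A retinal library held 89 to 471 fragments of this gene.

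Arhgap29 was far more abundant in RPE/choroid, at 20.3, 22.0 and 26.3 FPKM in wild type, although the tables of the 2 tissues were normalized separately. There Abca4-/- had 17.4, 17.6 and 21.2 and the knock-in 19.8, 23.7 and 27.3, and all groups overlapped. The knockout's effect differed between tissues by -1.03 (RPE/choroid minus retina, log2, SE 0.16, adjusted p = 0.015 in a fit of all 18 libraries), the only member of 77 to pass. Among all 16222 genes in that fit 0.136% passed. The adjusted p was 0.057 without wild-type retinal library 0. For the knock-in the difference was -0.90 (SE 0.16, adjusted p = 0.059), and 0 of 77 members passed in edgeR against 0.0555% of all genes, while 7 members and 5.98% of all genes had an unadjusted p under 0.05.

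RPE genes in the retinal libraries were set beside Arhgap29. Mean Rpe65, an RPE isomerase, was higher by 5.48 FPKM in Abca4-/- retina and by 2.56 in knock-in retina than in wild type, which is 0.464% and 0.217% of its level in wild-type RPE/choroid. For Arhgap29 the same shares were 5.22% and 6.81%, from gains of 1.20 and 1.56 FPKM. The summed FPKM of 10 RPE genes ranged from 287 to 301 in wild-type, 248 to 341 in Abca4-/- and 291 to 325 in knock-in retina. Rpe65 and Rgr, both among these 10, had wild-type means of 2.99 and 5.62 FPKM, a small part of that sum. Each was higher in every mutant retinal library than in any wild-type one. Rgr gained 9.92 and 5.74 FPKM, which is 0.560% and 0.324% of its level in wild-type RPE/choroid. The other genes of the sum are not given singly here. With a term for RPE markers the log2 changes of Arhgap29 were 1.29 (adjusted p = 0.405) and 1.34 (0.266), in a fit that called 5 and 3 genes in all. The source of the rise in Arhgap29 was not tested.

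Bcar3 encodes an adaptor of the SRC-CAS pathway that acts in cell adhesion and migration, 0.240 Mb from Abca4 on the other side (chr3:122122698-122233100). Wild-type retina held 9.02, 9.58 and 8.20 FPKM. Abca4-/- retina held 11.7, 13.2 and 12.3, all above it. Knock-in retina held 8.55, 8.59 and 7.35, overlapping wild type and below every Abca4-/- library.

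Bcar3 was 1.42-fold higher in Abca4-/- than in wild type (log2 0.51, SE 0.08, adjusted p = 0.00551) and 1.52-fold lower in the knock-in than in Abca4-/- (log2 -0.61, SE 0.08, adjusted p = 0.00108). Both calls held without any 1 library. Without the lens-rich libraries the first was 0.39 (adjusted p = 0.159) and the second -0.54 (0.0415). Knock-in and wild type differed by -0.10, with an interval from -0.26 to 0.06. The authors' deposited table gives q = 0.00547 and q = 0.00293 for the same pairs. In RPE/choroid, wild type had 14.5, 15.0 and 11.9 FPKM, Abca4-/- 16.8, 15.8 and 12.02 and the knock-in 13.2, 12.5 and 11.6, and no pair of groups passed.

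Cnn3 encodes calponin 3, an actin-binding protein of smooth muscle and other cells, and was the most abundant of the 6 in retina. Its FPKM were 53.6, 55.0 and 55.1 in wild type, 66.7, 70.3 and 66.6 in Abca4-/- and 64.2, 58.9 and 59.0 in the knock-in. The 3 groups did not overlap, with the knock-in between the others. The rise in Abca4-/- was 1.27-fold (log2 0.34, SE 0.05, adjusted p = 0.0074). It was 0.33 (adjusted p = 0.0509) without the lens-rich libraries and had an adjusted p of 0.0588 without wild-type library 1. In the authors' deposited table this gene has q = 0.135. For the knock-in the difference from wild type was 0.16 (adjusted p = 0.357). RPE/choroid levels were 225 to 292 in wild type, 252 to 284 in Abca4-/- and 216 to 272 in the knock-in, and overlapped. The retinal gain in Abca4-/- came to 5.27% of the wild-type RPE/choroid level.

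**Figure D1:**
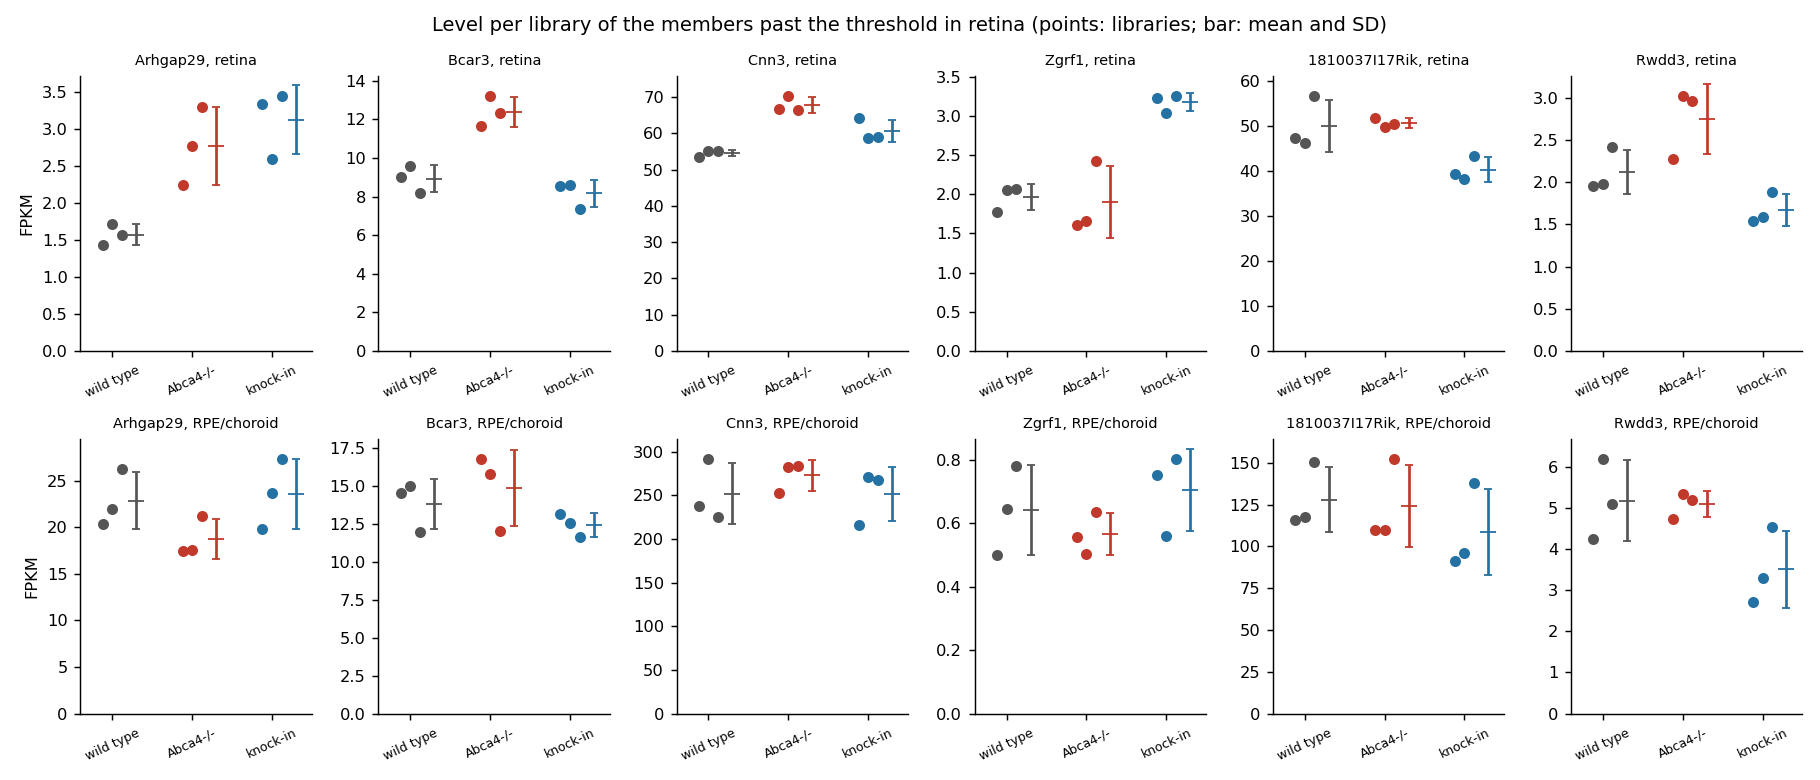
FPKM of the 6 members that passed in retina, in retina (top) and RPE/choroid (bottom), 1 point per library, with the mean and SD of 3 libraries beside the points. Arhgap29 was higher in both mutant retinas, Bcar3 in Abca4-/- retina, and Zgrf1 in knock-in retina (3.04 to 3.25 FPKM against 1.61 to 2.43 in the other 6 libraries).

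Zgrf1 encodes a zinc finger helicase of DNA repair and was the called member farthest from Abca4 (chr3:127256407-127320941). Wild-type retina had 1.78, 2.05 and 2.07 FPKM and Abca4-/- retina 1.61, 1.65 and 2.43. Knock-in retina had 3.23, 3.04 and 3.25. All 3 knock-in libraries exceeded all other retinal libraries, and the other 2 groups overlapped.

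The knock-in differed by 0.66 from wild type (log2, SE 0.11, adjusted p = 0.0169, 1.58-fold) and by 0.77 from Abca4-/- (SE 0.10, adjusted p = 0.00177, 1.71-fold). Leaving out 1 library moved the first to an adjusted p of 0.0524 to 0.0665 in 5 of 6 cases (all but knock-in library 2), and ended the second in none. With a term for sex the first had an adjusted p of 0.081. The authors' deposited table gives q = 0.00293 for both. Abca4-/- and wild type differed by -0.11, interval -0.33 to 0.11. Larp7, a cofactor of the 7SK small nuclear RNA whose mm9 locus ends beside that of Zgrf1, had 10.2 to 13.5, 11.01 to 14.7 and 10.8 to 14.4 FPKM in the 3 retinal groups, which overlapped. In RPE/choroid Zgrf1 was at 0.499 to 0.802 FPKM in all 9 libraries, with no call.

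1810037I17Rik, known as another-regulin, a micropeptide that inhibits the calcium pump of the endoplasmic reticulum, was lower in the knock-in. Its retinal FPKM were 47.3, 46.1 and 56.6 in wild type, 51.8, 49.8 and 50.3 in Abca4-/- and 39.2, 38.2 and 43.4 in the knock-in. No knock-in library reached the other groups, which overlapped each other. It fell by 0.35 against Abca4-/- (log2 -0.35, SE 0.08, adjusted p = 0.0375), and the difference from wild type was -0.37 (adjusted p = 0.0799). The call was lost, with an adjusted p of 0.0921 to 0.145, on leaving out any 1 of 5 of the 6 libraries compared, the exception being Abca4-/- library 2. In RPE/choroid the knock-in values of 91.0, 96.2 and 138 overlapped those of Abca4-/- (110, 110 and 152) and wild type (116, 117 and 151).

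Rwdd3 encodes RSUME, which promotes sumoylation, 0.873 Mb from Abca4. Retina held 1.96, 1.98 and 2.42 FPKM in wild type, 2.27, 3.02 and 2.96 in Abca4-/- and 1.54, 1.59 and 1.88 in the knock-in. Knock-in libraries lay below all others, and the other groups overlapped. The knock-in was 1.67-fold lower than Abca4-/- (log2 -0.74, SE 0.16, adjusted p = 0.0419), a call that leaving out any 1 of the 6 libraries ended (adjusted p 0.0517 to 0.218) and that rests on 37 to 104 fragments per library. It was also lost in DESeq2 (adjusted p = 0.0658) and in edgeR with the compared libraries alone (0.0794). In RPE/choroid, Rwdd3 stood at 4.24, 6.19 and 5.09 in wild type, 4.73, 5.33 and 5.20 in Abca4-/- and 2.71, 3.29 and 4.53 in the knock-in. The knock-in again lay below every Abca4-/- library (log2 -0.56, SE 0.15, adjusted p = 0.188).

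**Figure D2:**
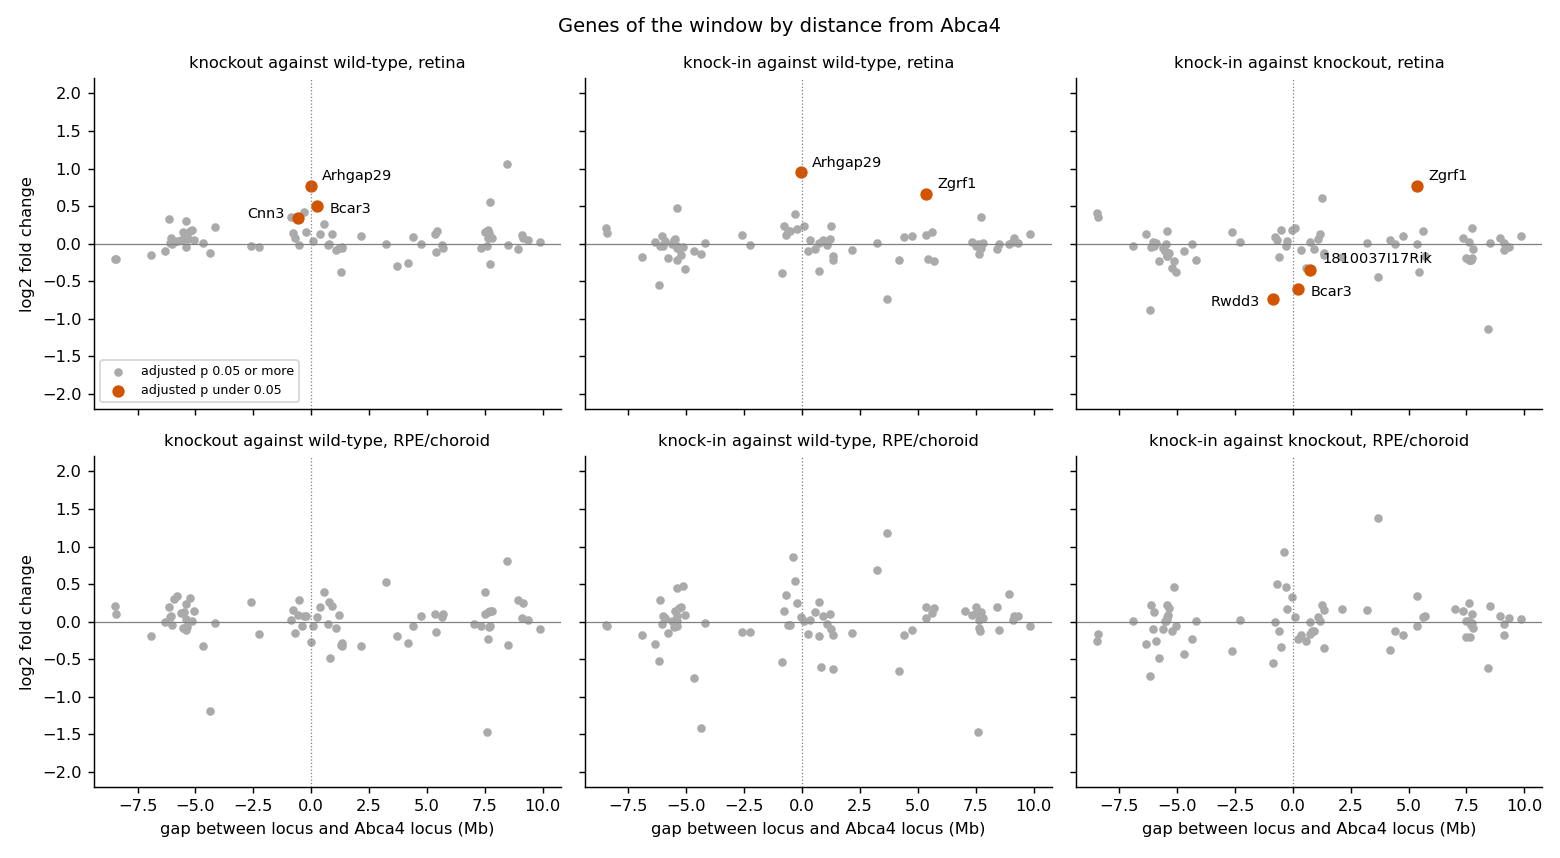
Log2 fold change of each tested member (vertical axis) against the gap in Mb between its locus and that of Abca4 (horizontal axis, lower coordinates to the left), for 3 comparisons in retina (top) and RPE/choroid (bottom). Orange points passed an adjusted p of 0.05. In retina 5 of the 6 named genes sit within 1 Mb of Abca4 and Zgrf1 sits at 5.37 Mb, and RPE/choroid has no orange point.

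In RPE/choroid no member passed in edgeR, of 76 tested in each comparison, against 0.472%, 0.0647% and 0.453% of all 15454 genes for Abca4-/- against wild type, the knock-in against wild type, and the knock-in against Abca4-/-. In any of these comparisons 0.666% of all genes passed. At an unadjusted p under 0.05 there were 12, 16 and 16 members, that is 15.8%, 21.1% and 21.1% of those tested. All genes gave 15.5%, 5.53% and 12.2%, so the members' share was near the background for Abca4-/- against wild type and above it for the other 2. DESeq2 called 4, 3 and 7 members, against 3.58%, 0.259% and 1.95% of all genes. Leaving out the rod-rich wild-type library 2 gave 3 calls in edgeR for Abca4-/- against wild type: Pde5a was higher, and Myoz2 and Ostc were lower. That fit tested 77 members and called 2.97% of all genes, so the members' count was near its background. Fewer cells of a type and less RNA per cell cannot be told apart in such whole tissue.

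F3 encodes tissue factor, the cell-surface starter of blood clotting, 0.309 Mb from Abca4. RPE/choroid held 37.0, 44.2 and 37.4 FPKM in wild type, 35.6, 41.1 and 50.04 in Abca4-/- and 48.2, 61.3 and 64.2 in the knock-in. The knock-in lay above wild type in every library and overlapped Abca4-/-. The differences were 0.54 from wild type (log2, SE 0.09, adjusted p = 0.22) and 0.47 from Abca4-/- (SE 0.09, adjusted p = 0.0844) in edgeR. DESeq2 called both, and the authors' deposited table gives q = 0.00347 and q = 0.0179. In retina F3 was at 3.21 to 3.87 FPKM in wild type, 4.49 to 5.27 in Abca4-/- and 4.59 to 5.09 in the knock-in, both lines above wild type and neither past the threshold (adjusted p = 0.238 and 0.445).

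Alg14, a subunit of the enzyme that adds the second sugar of N-glycan precursors, had 38.6, 39.2 and 38.8 FPKM in wild-type, 34.8, 34.4 and 37.3 in Abca4-/- and 48.5, 43.5 and 56.4 in knock-in RPE/choroid. The 3 groups did not overlap. The knock-in differed from Abca4-/- by 0.50 (log2, SE 0.09, adjusted p = 0.0606 in edgeR), and DESeq2 called it. Abcd3, a peroxisomal fatty acid transporter of the same protein class as Abca4, was at 50.7, 61.3 and 66.0 in wild type and 57.2, 65.8 and 85.8 in the knock-in, overlapping. Its difference of 0.25 (SE 0.05) had an adjusted p of 0.538 in edgeR and was called by DESeq2. In retina, Abcd3 was 20.2 to 22.6 in wild type, 23.7 to 25.2 in Abca4-/- and 23.7 to 27.2 in the knock-in.

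Pde5a encodes the cGMP phosphodiesterase of smooth muscle. Its RPE/choroid levels were 38.9, 40.6 and 47.0 FPKM in wild type, 44.1, 53.2 and 69.9 in Abca4-/- and 39.4, 39.3 and 60.5 in the knock-in, all overlapping. Abca4-/- exceeded wild type by 0.39 (log2, SE 0.07, adjusted p = 0.0576 in edgeR), and the authors' deposited table gives q = 0.0428. In retina, Abca4-/- (4.15 to 4.46) lay above all wild-type libraries (3.38 to 3.84), with a difference of 0.25 (adjusted p = 0.251).

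Myoz2 encodes a calcineurin-binding protein of the Z-disc of striated muscle. RPE/choroid held 37.2, 40.5 and 34.1 FPKM in wild type, 28.1, 23.9 and 28.7 in Abca4-/- and 26.2, 24.1 and 24.8 in the knock-in, both lines below every wild-type library. The differences were -0.49 (log2, SE 0.10, adjusted p = 0.0874) and -0.61 (SE 0.10, adjusted p = 0.22), and DESeq2 called both. The authors' deposited table gives q = 0.0428 and q = 0.00347. The summed FPKM of 6 skeletal muscle genes overlapped between groups, at 3128 to 4471 in wild type, 3456 to 4749 in Abca4-/- and 3797 to 6462 in the knock-in. Ostc, a subunit of the oligosaccharyltransferase, was at 91.8, 97.2 and 102 in wild type and 72.0, 77.5 and 87.1 in Abca4-/- RPE/choroid, without overlap (log2 -0.32, SE 0.07, adjusted p = 0.102).

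**Figure D3:**
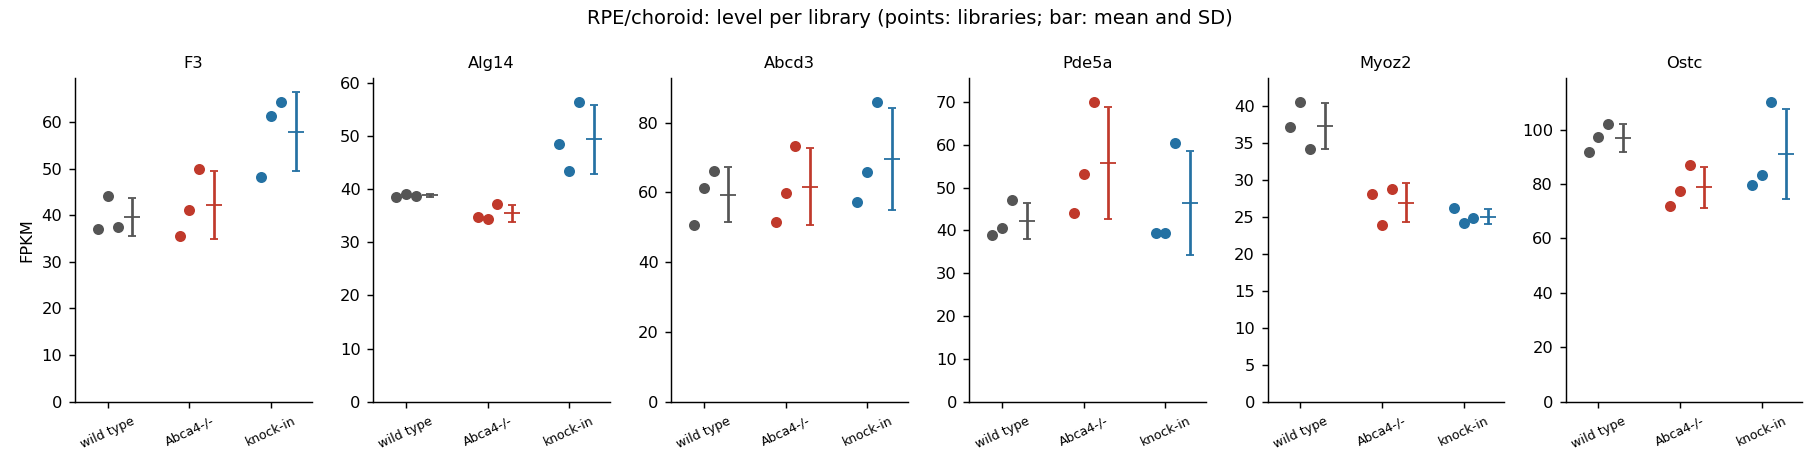
FPKM in RPE/choroid of 6 members, 1 point per library, with the mean and SD of 3 libraries beside the points. F3 and Alg14 were higher in all knock-in libraries than in wild type, Myoz2 was lower in both lines, and none of the 6 passed in edgeR.

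The authors' deposited comparison tables call members in all 6 comparisons. In retina they name Agxt2l1, Arhgap29 and Bcar3 as higher in Abca4-/- than in wild type (3 of 68 members tested there, against 3.44% of all genes). Zgrf1 and Arhgap29 were named as higher in the knock-in (2 of 68, 2.11%). The knock-in against Abca4-/- gave Zgrf1 as higher and A930005H10Rik, Agxt2l1 and Bcar3 as lower (4 of 68, 2.34%). In RPE/choroid the authors' deposited tables name Pde5a as higher and Myoz2 as lower in Abca4-/- (2 of 72, 2.90%). F3 was named as higher and Myoz2 and D3Bwg0562e as lower in the knock-in (3 of 73, 2.39%). Against Abca4-/- the knock-in had F3 and Ugt8a named as higher (2 of 72, 2.36%). Ugt8a was at 0.277, 2.44 and 0.563 FPKM in knock-in and 0.513, 0.371 and 0.386 in Abca4-/- RPE/choroid, overlapping, with knock-in library 1 far above the rest. D3Bwg0562e was at 1.17, 1.94 and 3.84 in wild type and 1.19, 1.045 and 1.74 in the knock-in. These overlapped, and the top value was that of the rod-rich library. Each count rests on 2 to 4 members, and the one farthest above its background was the knock-in against Abca4-/- in retina.

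Agxt2l1, an enzyme of phosphoethanolamine breakdown found in astrocytes and 8.44 Mb from Abca4, had 0.708, 0.841 and 1.38 FPKM in wild-type retina and 1.49, 1.77 and 2.93 in Abca4-/- retina. The groups did not overlap, and in edgeR the knock-in was lower than Abca4-/- by 1.14 (log2 -1.14, adjusted p = 0.0537). A930005H10Rik, a gene of no assigned role, had 17.8, 21.6 and 24.1 FPKM in Abca4-/- and 6.41, 12.9 and 12.4 in knock-in retina, without overlap. The same order was seen in RPE/choroid, with 21.6, 17.3 and 18.8 against 12.2, 10.9 and 10.9. Neither tissue's difference passed in edgeR (adjusted p = 0.166 and 0.16). DESeq2 called both, and edgeR called the one in RPE/choroid with the compared libraries alone or with a term for rod markers.

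Since retina and RPE/choroid were separate libraries, members that moved the same way in both were counted at an unadjusted p under 0.05. For the knock-in against wild type these were 1810037I17Rik, Abcd3, F3, Ndst3 and Rwdd3 (5 of 72 members, against 0.674% of all genes tested in both tissues). For the knock-in against Abca4-/- they were 1810037I17Rik, A930005H10Rik, Bcar3, Pde5a and Rwdd3 (5 of 72, 1.51%). For Abca4-/- against wild type they were Agxt2l1 and Pde5a (2 of 72, 1.92%). Whether the tissues of a number came from the same mouse is not given in the sources used here. With a term for RPE markers in edgeR, the knock-in's retinal log2 change from wild type went from 0.39 to -0.22 for F3. For 1810037I17Rik it went from -0.37 to -0.65. Whether RNA of one tissue in the libraries of the other enters these counts was not tested.

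By distance, the share of members with a small p was largest within 1 Mb of Abca4. At an unadjusted p under 0.05 in any of the 3 comparisons, 10 of the 15 tested within 1 Mb counted in retina (66.7%), against 3 of 16 at 1 to 5 Mb and 9 of 42 at 5 to 10 Mb. All genes tested in retina gave 22.6%. In RPE/choroid the count was 12 of 17 within 1 Mb (70.6%), then 4 of 16 and 9 of 43, against 22.9% of all genes. Genes of chromosome 3 at 10 to 20 Mb gave 19.2% and 20.1%, and those beyond gave 25.2% and 23.6%. At an adjusted p under 0.05 in retina, 5 of 15 were called within 1 Mb, 0 of 16 at 1 to 5 Mb and 1 of 42 at 5 to 10 Mb. Farther out it was 0 of 125 at 10 to 20 Mb and 22 of 531 beyond (4.14%), against 1.65% on other chromosomes. In retina, a raised share of calls was thus also seen far from Abca4 on chromosome 3. In RPE/choroid it was not: 1 of 550 genes beyond 20 Mb was called (0.182%), against 0.688% on other chromosomes. The distance classes were chosen with results known, neighbouring genes are not independent, and no test was made of these shares.

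**Figure D4:**
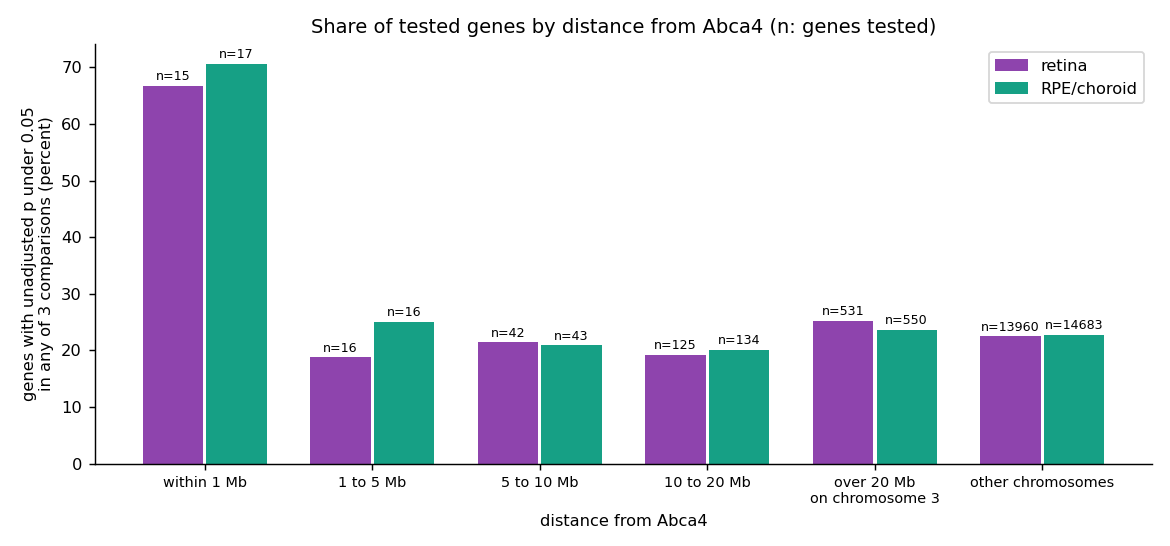
Percent of tested genes with an unadjusted p under 0.05 in any of 3 comparisons (vertical axis), by distance from Abca4 (horizontal axis), in retina and RPE/choroid, with the number of genes tested above each bar. The class within 1 Mb reached 66.7% and 70.6%, and all other classes lay between 18.8% and 25.2%.

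Sizes of change were also compared by distance. The median absolute log2 change within 1 Mb in retina was 0.14 for Abca4-/- against wild type, 0.17 for the knock-in against wild type and 0.18 between the lines, against 0.09, 0.08 and 0.09 on other chromosomes. In RPE/choroid the medians within 1 Mb were 0.15, 0.17 and 0.18, against 0.12, 0.08 and 0.10. At 1 to 5 Mb they were 0.27, 0.16 and 0.18 in RPE/choroid, and 0.07, 0.10 and 0.11 in retina. In RPE/choroid the first was larger than within 1 Mb and the others were close to it. The medians against wild type include the rod-rich wild-type library 2. Ptbp2 (7.21, 7.77 and 17.9 FPKM in wild type) and Tram1l1 (1.13, 1.35 and 3.61) stood highest in it, while Sec24d (22.7, 21.0 and 22.5) did not. How far that library sets these medians was not tested. Over all members tested the signed medians were 0.05, -0.00 and -0.03 in retina and 0.04, 0.02 and 0.01 in RPE/choroid, beside -0.00, 0.00, -0.00, -0.01, -0.00 and 0.00 over all genes.

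Within 1 Mb in retina, 3 members passed the test between the lines themselves: Bcar3, 1810037I17Rik and Rwdd3, all lower in the knock-in. For 1810037I17Rik, Abca4-/- and wild type differed by -0.01 (interval -0.17 to 0.14). Dnttip2, a nucleolar protein 0.0944 Mb from Abca4, was 0.24 above wild type in knock-in retina (adjusted p = 0.242) and 0.20 above Abca4-/- (adjusted p = 0.193). Tmem56, a membrane protein with a TLC domain, was 0.23 above wild type there (adjusted p = 0.357). Usp53, a deubiquitinase-like protein of cell junctions, was 0.26 above wild type in both lines in RPE/choroid (adjusted p = 0.159 for Abca4-/- and 0.758 for the knock-in), and all groups overlapped in both tissues.

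**Figure D5:**
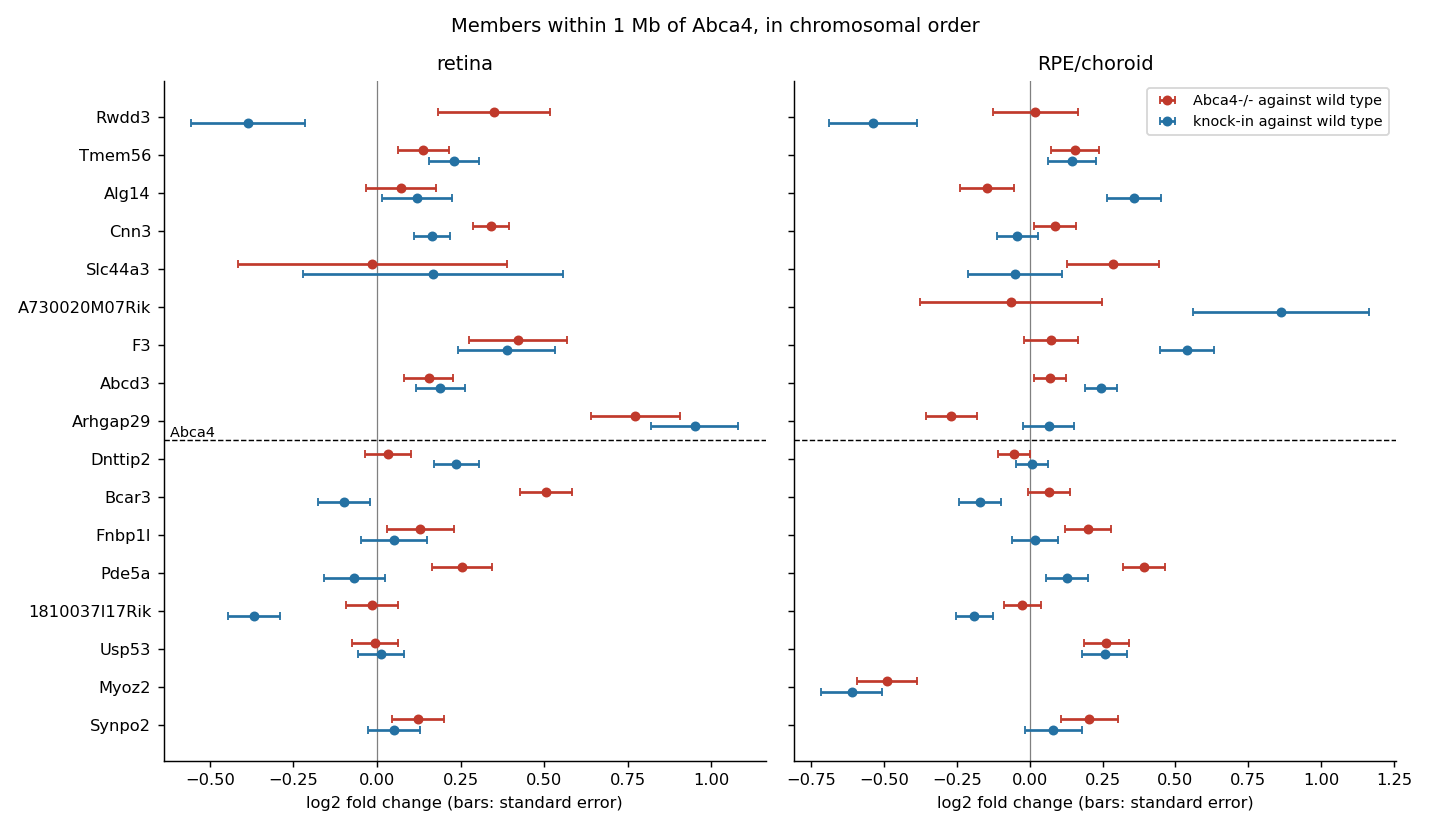
Log2 fold change against wild type (horizontal axis; bars are standard errors) of the 17 members within 1 Mb of Abca4 that were tested in RPE/choroid, in chromosomal order from top to bottom, in retina (left) and RPE/choroid (right). The dashed line marks Abca4. Both lines share the wild-type libraries. Arhgap29 was high in both lines in retina, and Rwdd3, Bcar3 and 1810037I17Rik had the knock-in on the lower side.

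Of the members, 64 belonged to 1 of 7 role lists. The list of adhesion, cytoskeleton and small GTPase genes held 9 members, 8 of them tested in retina. Of these, 3 rose in Abca4-/- (Arhgap29, Bcar3 and Cnn3), 1 rose in the knock-in, and 1 was lower in the knock-in than in Abca4-/-. All genes tested in retina were called at 0.980%, 0.265% and 1.26% in these comparisons. The list's median log2 change in Abca4-/- retina was 0.13, where all genes had -0.00. The list was drawn up with earlier results known and includes Arhgap29, Bcar3 and Cnn3, so its count and median are no separate evidence about such genes. Ank2, the ankyrin that ties membrane proteins to the spectrin skeleton, was at a level like that of Cnn3 in retina, at 57.9 to 64.9 FPKM in wild-type, 56.5 to 67.0 in Abca4-/- and 59.3 to 72.0 in knock-in retina, overlapping.

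The list of RNA, translation and chromatin genes held 9 members, all tested, of which Rwdd3 passed. Ptbp2, the neuronal splicing repressor, had 46.2 to 51.5 FPKM in wild-type, 45.1 to 55.4 in Abca4-/- and 45.7 to 56.3 in knock-in retina. Rtcd1, the RNA 3'-phosphate cyclase, had 22.5 to 27.9 in wild type and 28.0 to 29.0 in Abca4-/- retina, apart by a small gap (log2 0.15, adjusted p = 0.425). The other 5 lists had no call in any of the 6 comparisons in edgeR. They held 19 metabolic enzymes and transporters, 9 secretory and trafficking genes, 4 cell cycle and cell death genes, 9 receptors, ligands and signalling genes, and 5 eye genes.

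The most abundant members of those lists had no call. Papss1, which makes the sulfate donor of the cell, was at 26.4 to 30.3 FPKM over all retinal libraries. Hiat1 (Mfsd14a), a transporter-like protein, was at 22.6 to 28.8. Cdc14a, a phosphatase, was at 20.6 to 34.1 in RPE/choroid. Camk2d, a calcium/calmodulin kinase, was the most abundant member in retina, at 77.6 to 79.3 in wild type, 77.7 to 97.4 in Abca4-/- and 81.9 to 86.8 in the knock-in (smallest adjusted p 0.571 over the 6 comparisons). Its knock-in libraries lay above all wild-type ones, and Abca4-/- overlapped both. S1pr1, the sphingosine-1-phosphate receptor of endothelium and glia, was at 19.3 to 20.2 in wild-type, 17.1 to 19.3 in Abca4-/- and 19.4 to 20.9 in knock-in retina. Abca4-/- lay just below both other groups (smallest adjusted p 0.479).

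Among the eye genes, Rrh (peropsin, an opsin-like protein of RPE microvilli) was at 123, 141 and 153 FPKM in wild-type, 124, 109 and 127 in Abca4-/- and 117, 129 and 200 in knock-in RPE/choroid. In retina it had 20.1 to 21.3, 21.2 to 22.9 and 17.7 to 20.04, with the knock-in below both other groups and no call (smallest adjusted p 0.30). Lrit3, a synaptic protein that ON bipolar cells need, was at 17.6 to 22.4 in retina. In RPE/choroid it was 2.27 in the rod-rich wild-type library and 0.0959 to 0.601 in the other 8. Olfm3 and Neurog2 had no call.

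At the edges, the outermost members were Amy2b, with no fragment, and Dkk2 (27.2 to 29.8 FPKM as group means in RPE/choroid, under 1 in retina). The first genes outside were Prmt6 and Aimp1, with group means of 11.8 to 13.7 and 39.1 to 41.7 FPKM in retina. Widening the window to 20 Mb added no call in retina, and narrowing it to 5 Mb removed Zgrf1.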

How the data were processed

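RNA levels of 18 libraries were analysed. The submitters' processing notes name mm9, TopHat, Bowtie2 and Cufflinks. For versions, annotation and use of the strand in counting, nothing was given in the sources used. The deposited gene tables give expected counts of fragments per library, per the file headers (98.5% and 98.4% of the retinal and RPE/choroid values are whole; all were rounded), and FPKM per library and per genotype. The authors' comparison tables give p-values and q-values, and directions for them were taken from the genotype FPKM.

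Tests on these counts used edgeR 4.0.16 under R 4.3.3 (robust quasi-likelihood, TMM scaling, filterByExpr), with the 9 libraries of a tissue in 1 fit and Benjamini-Hochberg adjustment over all genes per comparison. A standard error is the absolute log2 change divided by the square root of F. Effects were compared between tissues in a fit of all 18 libraries. No failed estimate fell on a member. The edgeR fit within each tissue was tested on simulated counts for Abca4-/- against wild type, and the other fits were not. In 18 pairs of libraries of 1 group none were copies (chi-square per gene 3.39 to 99.8).

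Libraries carry the numbers 0 to 2 of the tables, which cannot be matched to the numbers 1 to 3 of the sample titles. Members and lists were chosen with earlier results of these data known. Genes named are Arhgap29, Bcar3 and Cnn3, members called, and up to 2 of the most abundant members of each role list per tissue (25 genes, of which 1 is not reported here). Others named (Agxt2l1, Alg14, A930005H10Rik, Larp7, window-edge genes, and members of counts) were chosen after their values were seen. All 97 members matched a RefSeq name, 12 under a newer symbol. Alternatives were DESeq2 1.42.0, RLE scaling, limma 3.58.1 on log2(FPKM + 1) and log2(FPKM + 0.1), 2 other filters, fits of the compared groups only, a replicate block, leaving out each library, and windows of 5 and 20 Mb. Terms for RPE, lens and rod markers and for sex, leaving out the 3 lens-rich libraries, and leaving out each library in the fit of both tissues were added after seeing the data. Precision for low genes is limited by their fragment number.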

Additional observations from a re-analysis of the deposited data

Results flagged for a closer look

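The effect of the knockout on Arhgap29 differed between tissues: the log2 change was lower by -1.03 in RPE/choroid than in retina, by the test of that difference itself (adjusted p = 0.015, edgeR). The gene was higher in 3 of 3 Abca4-/- retinal libraries than in any wild-type retinal library, while in RPE/choroid the 2 genotypes overlapped. The gap test for a single far library was not run, since groups held 3 libraries.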

How the results depend on the processing

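For Abca4-/- and then the knock-in against wild type, and last for the knock-in against Abca4-/-, members called numbered 3, 2 and 4 in retina and 0, 0 and 0 in RPE/choroid. With limma, at either pseudocount (FPKM + 1 or FPKM + 0.1), the retinal counts were 0, 0 and 0. A term for RPE markers gave 0, 0 and 2, a term for lens markers 0, 1 and 4, and a term for sex 3, 0 and 5. Without the 3 lens-rich libraries, where Abca4-/- keeps 1 library assumed to vary like the other groups, the counts were 0, 2 and 3. A window of 5 Mb gave 3, 1 and 3. In RPE/choroid, DESeq2 gave 4, 3 and 7, a term for rod markers 4, 1 and 5, the compared groups alone 4 for the last, and a filter at a mean FPKM of 1 gave 1 for the last. Calls over all genes moved too. In RPE/choroid they went from 73, 10 and 70 to 529, 43 and 309 in DESeq2 and to 378, 13 and 179 with the rod term. For the knock-in against Abca4-/- they went to 198 with the compared groups alone and to 78 under that filter. In retina they went from 144, 39 and 185 to 18, 6 and 11 in limma at FPKM + 1 and to 14, 7 and 12 at FPKM + 0.1. They were 5, 3 and 118 with the RPE term, 59, 26 and 239 with the lens term and 147, 14 and 289 with the sex term. Members called without single libraries ran from 2 to 3, 1 to 2 and 2 to 4 in retina, and from 0 to 3 for Abca4-/- against wild type in RPE/choroid. The difference between tissues gave 1 member for the knockout (0 to 3 without single libraries, 0 without wild-type retinal library 0, 3 without wild-type RPE/choroid library 2: Arhgap29, Bcar3 and Ostc, where all genes called went from 22 to 337). For the knock-in it gave 0 (0 to 1, and 1 without an expression filter). The cause of these differences was not tested. No direction reversed among the called changes.

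Whether table numbers pair the libraries was not settled: correlations of same-numbered deviations ran from -0.461 to 0.243, and 6 of 18 exceeded 0.1. The lens-rich libraries enter these values. Some members kept the same order of libraries in all 3 groups, such as Larp7 in retina. It had 10.2, 11.9 and 13.5 FPKM in wild type, 11.01, 12.2 and 14.7 in Abca4-/- and 10.8, 12.7 and 14.4 in the knock-in. How many members did so was not counted. With the number as a replicate block the retinal counts were 4, 2 and 4 and the RPE/choroid counts 0, 0 and 0, and the tissue difference counts were 0 and 0 (Arhgap29, adjusted p = 0.0504). Over all genes the block gave 194, 45 and 271 calls in retina (144, 39 and 185 without it) and 28, 4 and 36 in RPE/choroid (73, 10 and 70 without it). Rwdd3 rests on few fragments per library, and its call was lost on leaving out any 1 of the libraries compared.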
